A study of Mus musculus with 18 samples.

Results

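The 31 genes described here encode chaperones of the endoplasmic reticulum (ER) and the sensors, signalling proteins and degradation factors of the unfolded protein response. They were chosen by symbol as genes of this pathway, and each was matched to its Ensembl gene among the 55029 genes of the larger of the 2 file layouts. By role they are 6 ATP-driven chaperones and their partners, 3 J-domain co-chaperones, 2 lectin chaperones, 5 disulphide oxidoreductases, 5 sensors and signalling proteins, 8 genes of ER-associated degradation, 1 translocon subunit and 1 gene of the TMBIM family. All 31 are listed in both layouts, and 30 passed the filter on low counts. The exception was Derl3, with at most 2 counts in any library. Positions are given on the mouse genome GRCm38.

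Proteins that enter the secretory pathway fold inside the ER with the help of Hsp70 and Hsp90 chaperones, lectins that bind their sugar chains, and enzymes that form disulphide bonds. When unfolded protein accumulates, the membrane sensors IRE1, PERK and ATF6 start the unfolded protein response, which slows translation, makes more chaperones and sends misfolded protein to degradation in the cytosol. Eosinophil development is known to depend on XBP1, a transcription factor of this response.

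The measurements were RNA counts per gene in eosinophils taken from the peritoneal cavity of C57BL/6 NJ.1638 mice, which carry an Il5 transgene, and purified by removing B and T cells with antibody-coated beads, so every group, controls included, came from transgenic animals. The cells were left unstimulated or kept for 18 h with heat-inactivated E. coli, with IFN-γ at 50 ng/ml, with IFN-γ and E. coli together, or with IL-4 at 100 ng/ml, to compare stimuli of type 1 and type 2 settings. Both stimuli means IFN-γ with E. coli throughout. Each of the 6 groups had 3 libraries, 18 in all, in 2 file layouts: unstimulated a to c with the E. coli and IFN-γ groups, and unstimulated d to f with the IL-4 group. The sources give no age or sex of the animals, and while the libraries of a group are named biological replicates, whether they came from different mice is not said. Whether the unstimulated cells were also kept in culture for 18 h is not said either. If they were not, time in culture cannot be told apart from the stimulus. Totals on genes were 1523808 to 2734041 counts per library in the E. coli and IFN-γ layout and 3625036 to 6482289 in the IL-4 layout.

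Levels are given as CPM, counts scaled to library size with TMM factors within each layout, and differences as log2 fold changes of a stimulus against the unstimulated libraries of its own layout, with n = 3 libraries a group. A gene was called where edgeR's quasi-likelihood test over all genes kept gave an adjusted p under 0.05, and rose or fell is used for called genes alone. A level of 3 counts, the smallest told from 0, equals 1.00 to 2.19 CPM in the first layout, that of E. coli and IFN-γ, and 0.497 to 0.833 CPM in the IL-4 layout, and covers counting error only. In that first layout no gene count reached the number of different 6-base molecular identifiers, and the highest count of a library lay between 4089 and 4095. Counts near that ceiling are compressed there, which among the members bears most on Grina, whose highest count of 3199 is 78.1% of the ceiling, and less on Xbp1 at 51.0%. The level of a gene was not compared between layouts, since highest counts of 87377 to 191131 show no such ceiling in the IL-4 layout. Hsp90b1, Manf and Pdia4 share exon positions with another gene on the same strand, so their counts are less certain. Hsp90b1, Manf, Dnajb9, Pdia3, Pdia6, Eif2ak3, Ppp1r15a, Syvn1 and Derl2 share them with a gene on the other strand, and the counting was not stated to use strand.

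With E. coli, 13 of the 30 members tested rose and none fell. The risers were 43.3% of the members, against 13.5% of the 9883 genes tested. They were the chaperones Hspa5, Hsp90b1, Hyou1, Manf and Creld2, the co-chaperone Dnajc3, the oxidoreductases Pdia6 and P4hb, the degradation genes Edem1, Sel1l, Derl2 and Selenos, and Grina. Beside the count of 0 for a fall in edgeR, 16.7% of all genes tested fell, 2 members, Dnajb9 and Ppp1r15a, were lower at an unadjusted p under 0.05, and DESeq2 called 0. The median log2 fold change was 0.35 over the members and -0.024 over all genes tested. Of the 13 rises, 7 were called whichever library was left out, and the count higher was 8 without unstimulated a and 9 to 18 without any 1 of the others. With at least 10 counts in every library, 2 members were called lower.

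IFN-γ alone changed the members in both directions. The 8 that rose, 26.7% of those tested against 15.6% of all genes, were Creld2, P4hb, Ero1lb, Atf6, Ppp1r15a, Edem1, Derl1 and Grina. The 3 that fell were Xbp1, Herpud1 and Sec61b, 10% of the members tested against 16% of all genes, which is no larger a share than the background. Members had a median log2 fold change of 0.17, and all genes tested one of -0.032. Hspa5, the central chaperone of the set, was not called with IFN-γ.

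IFN-γ with E. coli moved more members than either stimulus alone by count. Of the 30 tested, 16 rose, 53.3% against 23.9% of all genes, and 3 fell, 10% against 25.2%, a smaller share than the background. P4hb, Creld2, Ero1lb, Ppp1r15a, Edem1, Atf6 and Grina rose to at least a factor of 2. Xbp1, Eif2ak3 and Herpud1 were the members that fell. The median log2 fold change of the members was 0.41, beside -0.040 for all genes tested. Without IFN-γ with E. coli 2, 1 member fell in place of 3.

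IL-4 left nearly all members without a call. Grina rose and was the single member called, 3.33% of those tested against 5.97% of the 10556 genes tested. None was called lower by edgeR, against 4.35% of all genes. At an unadjusted p under 0.05, 6 members were lower, and DESeq2 called 2 of them, Calr and Derl1. Without unstimulated d or e, edgeR called 2 members lower, and without unstimulated f 1. Unstimulated e stood apart within its group by the chi-square per gene, a measure of how far 2 libraries differ. It was 23.7 against d and 22 against f, beside 7.86 between d and f. The bearing of this on the calls was not tested. The shares called with IL-4 are no larger than the background. The members' median was -0.21 on the log2 scale, and that of all genes tested 0.00057. Since the E. coli, IFN-γ and joint comparisons share their unstimulated libraries, their values stand side by side and no overlap between them is taken as a result.

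**Figure D1:**
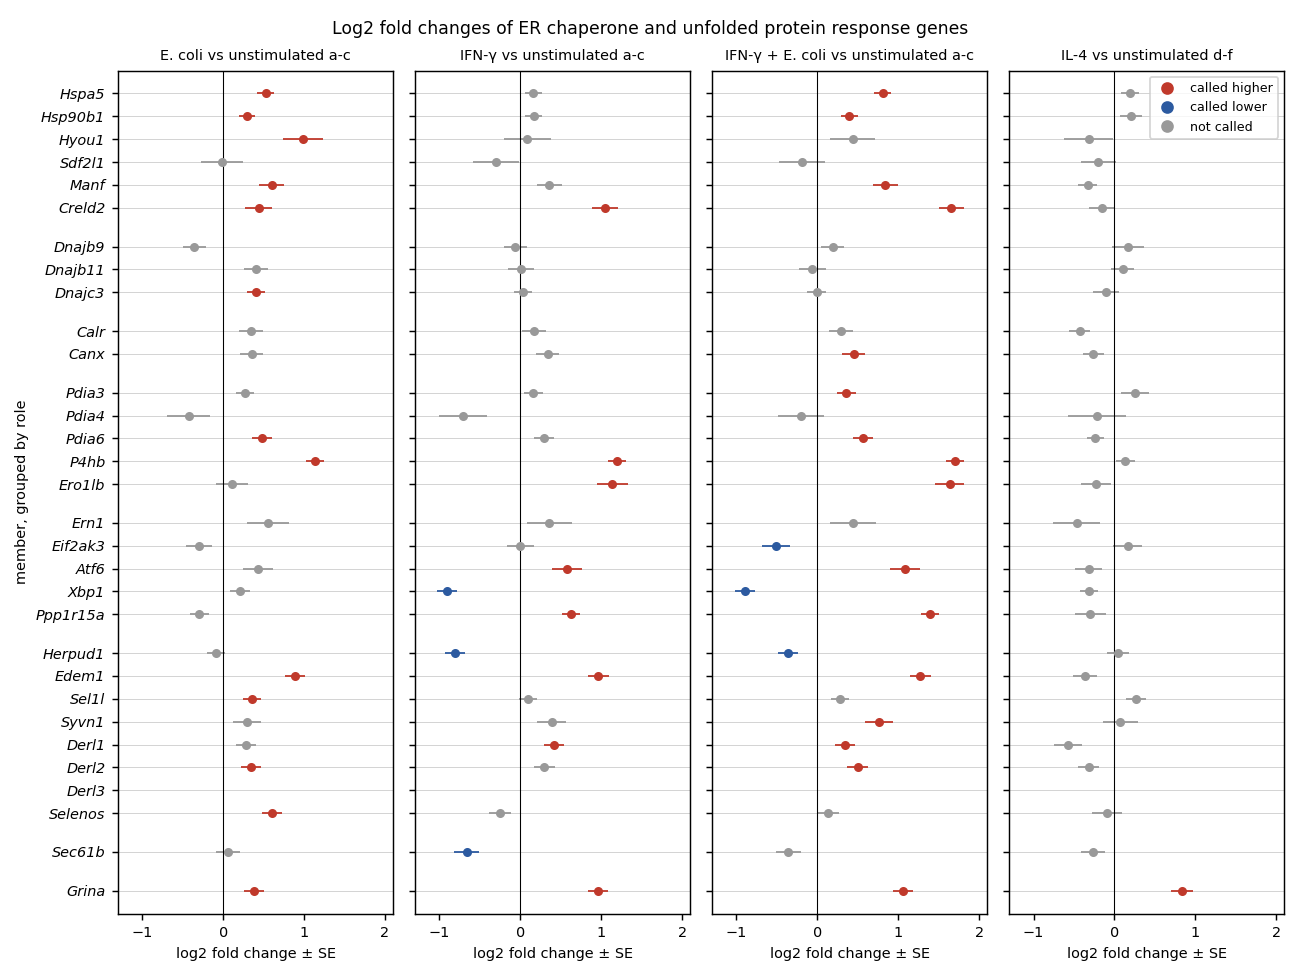
Log2 fold changes (points) with approximate standard errors (bars) of the members in each comparison with unstimulated cells, grouped by role, with n = 3 libraries a group; Derl3 was not tested. With E. coli the called members all lie to the right of 0, with IFN-γ 3 lie to the left, and with IL-4 Grina is the single called point.

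Among the ATP-driven chaperones and their partners, E. coli raised 5 of 6, 83.3% against 13.5% of all genes, IFN-γ 1, 16.7% against 15.6% and so near the background, and both stimuli 4, 66.7% against 23.9%. Hspa5, at chr2:34771970-34777547 on the plus strand, encodes BiP, the Hsp70 of the ER, which also keeps the sensors of the response inactive. Hspa5 stood at 339, 366 and 358 CPM in unstimulated libraries a to c, at 474, 485 and 572 CPM with E. coli, at 408, 375 and 407 CPM with IFN-γ and at 592, 597 and 671 CPM with both. For Hspa5, the IL-4 layout gave 365, 341 and 395 CPM without a stimulus and 429, 422 and 409 CPM with IL-4. The E. coli libraries all lay above the unstimulated ones, those with both stimuli lay above every other library of the layout, and the IFN-γ and IL-4 libraries lay slightly above their controls without a call. Hspa5 rose with E. coli (log2 fold change 0.53 ± 0.11 (SE), adjusted p = 0.000925) and with both stimuli (0.81 ± 0.11 (SE), adjusted p = 5.31e-06). Its differences with IFN-γ (0.16 ± 0.11 (SE)) and with IL-4 (0.19 ± 0.11 (SE)) did not pass the test.

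Creld2, at chr15:88819646-88826683 on the plus strand, encodes an EGF-domain protein of the ER that is induced when protein folding is disturbed. Creld2 stood at 31.3, 37.4 and 42.9 CPM in unstimulated libraries a to c, at 49.4, 43.5 and 59.2 CPM with E. coli, at 80, 72.8 and 77.8 CPM with IFN-γ and at 96.4, 122 and 133 CPM with both. For Creld2, the IL-4 layout gave 63.3, 78.5 and 56.8 CPM without a stimulus and 56.5, 56.2 and 66.4 CPM with IL-4. Within the first layout the groups formed steps that did not overlap, from unstimulated through E. coli and IFN-γ to both, whereas the IL-4 libraries overlapped their controls. The rise was 1.05 ± 0.16 (SE), adjusted p = 6.32e-05 with IFN-γ and 1.66 ± 0.16 (SE), adjusted p = 7.77e-08 with both stimuli, on the log2 scale. With E. coli it was 0.44 ± 0.16 (SE), adjusted p = 0.0496, and this call was lost without unstimulated a or b, E. coli 1 or 3, IFN-γ 1 or IFN-γ with E. coli 2 (log2 0.32 to 0.46), by DESeq2, with at least 10 counts in every library and with the ceiling corrected.

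Manf, at chr9:106838312-106891979 on the minus strand, encodes a soluble ER protein that binds BiP and can be secreted. Manf stood at 117, 135 and 129.7 CPM in unstimulated libraries a to c, at 182, 179 and 217 CPM with E. coli, at 163, 144 and 182 CPM with IFN-γ and at 172, 224 and 286 CPM with both. For Manf, the IL-4 layout gave 193, 213 and 188 CPM without a stimulus and 165, 145 and 163 CPM with IL-4. All stimulated libraries of the first layout lay above the unstimulated ones, those with both stimuli overlapped each single stimulus and reached higher, and the IL-4 libraries all lay below their controls. Manf rose with E. coli (0.60 ± 0.15 (SE), adjusted p = 0.00514) and with both stimuli (0.84 ± 0.15 (SE), adjusted p = 0.000161), and was not called with IFN-γ (0.36 ± 0.15 (SE)) or IL-4 (-0.33 ± 0.12 (SE)).

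Hyou1, a large Hsp70-like exchange factor for BiP, rose with E. coli by 0.98 ± 0.25 (SE), adjusted p = 0.00565, from 13.9 ± 3.00 to 28.3 ± 4.51 CPM (mean ± SD, n = 3). It was not called with the other stimuli, where its log2 fold change ran from -0.32 with IL-4 to 0.44 with both. Hsp90b1, the Hsp90 of the ER, rose by 0.39 ± 0.10 (SE), adjusted p = 0.00463 with both stimuli. Its smaller rise with E. coli (0.29 ± 0.10 (SE), adjusted p = 0.0397) was lost without unstimulated b or c or any 1 of the E. coli libraries (log2 0.27 to 0.33), and also without a filter or with at least 10 counts in every library. Sdf2l1, which works with BiP's co-chaperones, was not called with any stimulus, with log2 fold changes from -0.30 to -0.013.

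The J-domain co-chaperones, which bring client proteins to BiP and stimulate its ATPase, had 1 call against unstimulated cells among 3, a rise with E. coli, 33.3% against 13.5% of all genes. Dnajc3 rose with E. coli by 0.41 ± 0.11 (SE), adjusted p = 0.00812, a call lost without unstimulated a (log2 0.34). Dnajb11 and Dnajb9 were not called against unstimulated cells, with log2 fold changes with E. coli of 0.40 ± 0.15 (SE) and -0.36 ± 0.14 (SE). Every E. coli library lay above the unstimulated ones for Dnajb11 and below them for Dnajb9. Of the lectin chaperones, which hold newly made glycoproteins while they fold, Canx rose with both stimuli (0.45 ± 0.14 (SE), adjusted p = 0.0145), a call lost without unstimulated a or IFN-γ with E. coli 3 (log2 0.28 to 0.32). Calr was not called with any stimulus, and its log2 fold change ran from -0.43 with IL-4 to 0.34 with E. coli.

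Of the 5 disulphide oxidoreductases, 4 rose with both stimuli, 80% against 23.9% of all genes, 2 with IFN-γ alone, 40% against 15.6%, and 2 with E. coli alone, 40% against 13.5%. With IL-4 edgeR called none, beside 5.97% of all genes higher and 4.35% lower, with 0 at an unadjusted p under 0.05 and 0 by DESeq2. P4hb, at chr11:120560298-120573253 on the minus strand, encodes protein disulphide isomerase, which forms and rearranges disulphide bonds and is also a subunit of collagen prolyl hydroxylase. P4hb stood at 226, 239.6 and 239 CPM in unstimulated libraries a to c, at 518, 491 and 539 CPM with E. coli, at 455, 582 and 570.2 CPM with IFN-γ and at 734, 763 and 791 CPM with both. For P4hb, the IL-4 layout gave 162, 179 and 172 CPM without a stimulus and 167, 189 and 206 CPM with IL-4. The E. coli and IFN-γ libraries overlapped each other far above the unstimulated ones, the libraries with both stimuli lay above all others, and the IL-4 libraries overlapped their controls. P4hb rose by 1.14 ± 0.11 (SE), adjusted p = 3.55e-07 with E. coli, by 1.19 ± 0.11 (SE), adjusted p = 1.84e-07 with IFN-γ and by 1.70 ± 0.11 (SE), adjusted p = 5.51e-10 with both.

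Ero1lb, at chr13:12565874-12611396 on the plus strand, encodes an oxidase that hands disulphide bonds to protein disulphide isomerase. Ero1lb stood at 22.4, 31.7 and 22.7 CPM in unstimulated libraries a to c, at 26.9, 25.4 and 29.1 CPM with E. coli, at 57.7, 47.7 and 60.8 CPM with IFN-γ and at 62.8, 73.4 and 96.9 CPM with both. For Ero1lb, the IL-4 layout gave 15.6, 20 and 18.7 CPM without a stimulus and 14.3, 16.9 and 15.3 CPM with IL-4. The E. coli libraries lay within the range of the unstimulated ones, the IFN-γ libraries all lay above both, and those with both stimuli lay above the IFN-γ ones. Ero1lb rose with IFN-γ (1.14 ± 0.19 (SE), adjusted p = 0.000124) and with both stimuli (1.63 ± 0.18 (SE), adjusted p = 6.54e-07), and not with E. coli (0.11 ± 0.20 (SE)) or IL-4 (-0.23 ± 0.19 (SE)). Pdia6 rose with E. coli (0.48 ± 0.12 (SE), adjusted p = 0.00549) and with both stimuli (0.56 ± 0.12 (SE), adjusted p = 0.000885). Pdia3, the isomerase that works with the lectin chaperones, rose with both stimuli by 0.36 ± 0.12 (SE), adjusted p = 0.018, and this call was lost without unstimulated a or IFN-γ with E. coli 3 (log2 0.27 to 0.34) and without a filter. Pdia4 was not called with any stimulus. Its IFN-γ libraries, at 6.54 to 8.96 CPM, all lay below the unstimulated ones, at 9.51 to 15.3 CPM (-0.70 ± 0.30 (SE), adjusted p = 0.079), and the other groups overlapped their controls.

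Of the 5 sensors and signalling partners, 2 rose and 1 fell with IFN-γ, 40% and 20% against 15.6% and 16% of all genes, and 2 rose and 2 fell with both stimuli, 40% each way against 23.9% and 25.2%. None was called by edgeR with E. coli, where 2 were higher and 1 lower at an unadjusted p under 0.05, or with IL-4, where 0 were higher and 1 lower, and DESeq2 called 0 in either direction in these comparisons. Xbp1, at chr11:5520659-5525893 on the plus strand, encodes the transcription factor that IRE1 activates by splicing its mRNA, and counts per gene do not tell the spliced from the unspliced form. Xbp1 stood at 536, 742 and 629 CPM in unstimulated libraries a to c, at 732, 699 and 774 CPM with E. coli, at 329.7, 341 and 344 CPM with IFN-γ and at 387, 345 and 295 CPM with both. For Xbp1, the IL-4 layout gave 375, 408 and 371 CPM without a stimulus and 294, 304 and 333 CPM with IL-4. Every library with IFN-γ, alone or with E. coli, lay below every unstimulated library, the E. coli libraries overlapped the upper unstimulated ones, and the IL-4 libraries lay below their controls. Xbp1 fell with IFN-γ (-0.91 ± 0.13 (SE), adjusted p = 1.95e-05) and with both stimuli (-0.89 ± 0.13 (SE), adjusted p = 1.17e-05). The differences with E. coli (0.21 ± 0.12 (SE)) and IL-4 (-0.31 ± 0.11 (SE), adjusted p = 0.112) did not pass the test.

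Ppp1r15a, at chr7:45522916-45526268 on the minus strand, encodes GADD34, the phosphatase subunit that restores translation after eIF2α has been phosphorylated. Ppp1r15a stood at 77.1, 73.5 and 66.9 CPM in unstimulated libraries a to c, at 60, 55.5 and 62.2 CPM with E. coli, at 111, 118 and 107 CPM with IFN-γ and at 202, 178 and 191 CPM with both. For Ppp1r15a, the IL-4 layout gave 58, 62.6 and 38.1 CPM without a stimulus and 43, 44.9 and 41.2 CPM with IL-4. The E. coli libraries lay below the unstimulated ones, the IFN-γ libraries above them and those with both stimuli highest, with no overlap between these groups, while the IL-4 and control libraries overlapped. Ppp1r15a rose with IFN-γ (0.63 ± 0.11 (SE), adjusted p = 0.00028) and with both stimuli (1.39 ± 0.11 (SE), adjusted p = 6.79e-09). The difference with E. coli was -0.30 ± 0.12 (SE), adjusted p = 0.06, which misses the threshold.

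Atf6, at chr1:170704674-170867771 on the minus strand, encodes a sensor that is cut in the Golgi to release a transcription factor. Atf6 stood at 35.4, 31.1 and 44.2 CPM in unstimulated libraries a to c, at 41.2, 55.2 and 54.3 CPM with E. coli, at 50.4, 57.4 and 59.5 CPM with IFN-γ and at 90.6, 87.7 and 58.7 CPM with both. For Atf6, the IL-4 layout gave 31.1, 36.6 and 37.8 CPM without a stimulus and 31.8, 28.1 and 24.6 CPM with IL-4. The IFN-γ libraries and those with both stimuli all lay above the unstimulated ones, replicate 3 of both stimuli within the range of IFN-γ alone, and the E. coli and IL-4 libraries overlapped their controls. Atf6 rose with both stimuli (1.08 ± 0.18 (SE), adjusted p = 7.23e-05) and with IFN-γ (0.58 ± 0.19 (SE), adjusted p = 0.0231). The IFN-γ call was lost without unstimulated a or b or IFN-γ 2 or 3 (log2 0.51 to 0.59).

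Eif2ak3, at chr6:70844515-70905245 on the plus strand, encodes PERK, the sensor kinase that phosphorylates eIF2α. Eif2ak3 stood at 40.6, 37.4 and 39.6 CPM in unstimulated libraries a to c, at 31.4, 34.4 and 29.6 CPM with E. coli, at 31.9, 42 and 44.5 CPM with IFN-γ and at 22.6, 26.8 and 33 CPM with both. For Eif2ak3, the IL-4 layout gave 28.9, 28.2 and 33 CPM without a stimulus and 34.2, 39.4 and 27 CPM with IL-4. Libraries with E. coli or with both stimuli lay below the unstimulated ones and overlapped each other, while the IFN-γ and IL-4 groups overlapped their controls. Eif2ak3 fell with both stimuli (-0.51 ± 0.18 (SE), adjusted p = 0.0208), a call lost without unstimulated a or IFN-γ with E. coli 1 or 2 (log2 -0.49 to -0.38) and by DESeq2. Ern1, at chr11:106394650-106487852 on the minus strand, encodes IRE1, the sensor that splices the Xbp1 mRNA. Ern1 stood at 13.4, 10.1 and 17.8 CPM in unstimulated libraries a to c, at 21.6, 19.7 and 20.7 CPM with E. coli, at 15.7, 11.8 and 28.1 CPM with IFN-γ and at 18.3, 17 and 22.4 CPM with both. For Ern1, the IL-4 layout gave 9.72, 23 and 17 CPM without a stimulus and 14.1, 10.3 and 12.2 CPM with IL-4. The E. coli libraries lay closely together above the unstimulated ones, and the other groups overlapped their controls, with IFN-γ 3 and unstimulated e high within their groups. Ern1 was not called with any stimulus, with log2 fold changes from -0.47 ± 0.30 (SE) to 0.55 ± 0.26 (SE).

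**Figure D2:**
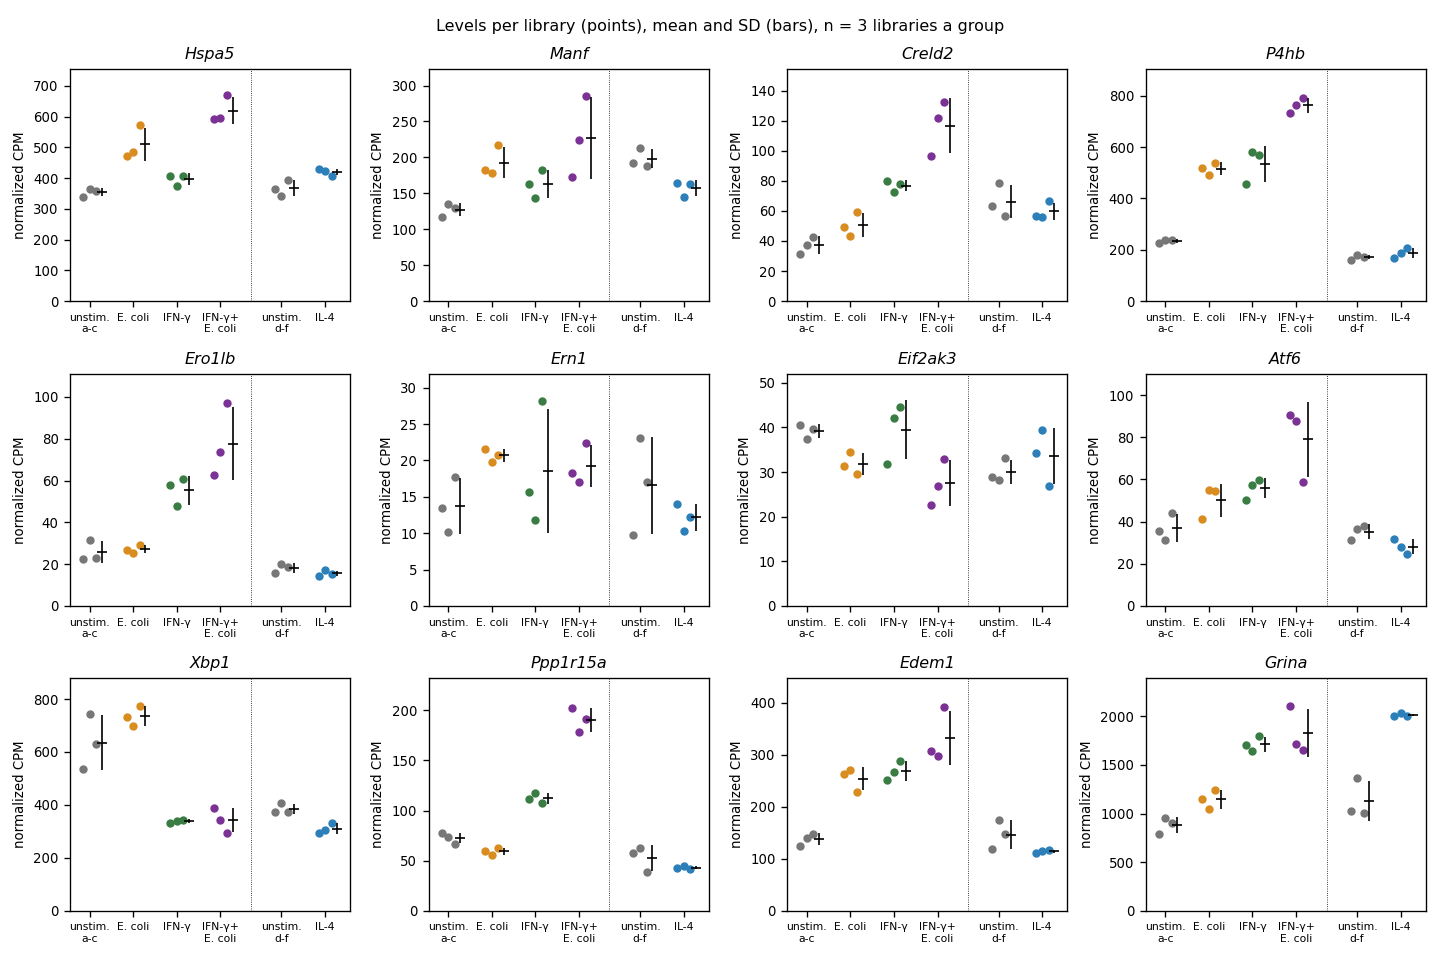
Normalized CPM in each library (points) with the mean and SD of each group (bars, n = 3 libraries) for the members whose values are given per library, with the IL-4 layout to the right of the dotted line. Left of the line, P4hb, Creld2 and Ppp1r15a are highest with IFN-γ and E. coli together, and Xbp1 is lower with IFN-γ, with or without E. coli, than in the other groups. Right of it, Grina is higher with IL-4 than in its controls.

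ER-associated degradation takes misfolded protein out of the ER to the proteasome, and 7 of its 8 members passed the filter. Of these, 4 rose with E. coli, 57.1% against 13.5% of all genes, and edgeR called none lower, beside 16.7% of all genes, with 0 at an unadjusted p under 0.05 and 0 by DESeq2. With IFN-γ 2 rose and 1 fell, 28.6% and 14.3% against 15.6% and 16%, and with both 4 rose and 1 fell, 57.1% and 14.3% against 23.9% and 25.2%. The shares that fell are no larger than the background. Edem1, at chr6:108828641-108859356 on the plus strand, encodes a mannosidase-related protein that marks glycoproteins for this pathway. Edem1 stood at 125, 140.1 and 147 CPM in unstimulated libraries a to c, at 262, 269.8 and 229 CPM with E. coli, at 251, 266 and 288 CPM with IFN-γ and at 307, 297 and 391.7 CPM with both. For Edem1, the IL-4 layout gave 118, 173 and 147 CPM without a stimulus and 111, 114 and 116 CPM with IL-4. E. coli and IFN-γ libraries overlapped each other well above the unstimulated ones, those with both stimuli lay above all others, and the IL-4 libraries lay just below their controls. The rise was 0.89 ± 0.12 (SE), adjusted p = 2.22e-05 with E. coli, 0.97 ± 0.12 (SE), adjusted p = 8.39e-06 with IFN-γ and 1.27 ± 0.12 (SE), adjusted p = 1.12e-07 with both, on the log2 scale.

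Herpud1, a membrane protein that assembles the degradation complex, fell with IFN-γ (-0.80 ± 0.12 (SE), adjusted p = 4.99e-05), from 92.8 ± 8.52 to 52.9 ± 2.91 CPM (mean ± SD, n = 3), with no overlap. With both stimuli its fall (-0.36 ± 0.12 (SE), adjusted p = 0.0165) was lost without unstimulated b or IFN-γ with E. coli 2 (log2 -0.30 to -0.27), without a filter and by DESeq2. Selenos, a selenoprotein that links the derlins to the extraction ATPase, rose with E. coli (0.61 ± 0.13 (SE), adjusted p = 0.00118). Syvn1, the ubiquitin ligase of the pathway, rose with both stimuli (0.76 ± 0.17 (SE), adjusted p = 0.00123).

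Sel1l, the ligase's partner, rose with E. coli by 0.36 ± 0.11 (SE), adjusted p = 0.0205 and lost that call without unstimulated a or b or E. coli 1 (log2 0.31 to 0.37). Derl1 and Derl2 encode derlins, which form part of the channel out of the ER. Derl2 rose with both stimuli (0.50 ± 0.13 (SE), adjusted p = 0.00357). Its rise with E. coli (0.34 ± 0.13 (SE), adjusted p = 0.047) was lost without unstimulated a or c or any 1 of the E. coli libraries (log2 0.28 to 0.38), and also by DESeq2, with no filter, with at least 10 counts in every library and with the ceiling corrected. Derl1 rose with IFN-γ (0.42 ± 0.12 (SE), adjusted p = 0.0134) and lost that call without unstimulated a or IFN-γ 3 (log2 0.37). With both stimuli Derl1 rose by 0.34 ± 0.12 (SE), adjusted p = 0.0276 and lost that call without unstimulated a or c or IFN-γ with E. coli 3 (log2 0.22 to 0.33), with at least 10 counts in every library and in a fit of the 6 libraries compared. Derl3 was at or under the floor of 3 counts in all 18 libraries, so no fold is given for it.

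Sec61b, a subunit of the channel through which proteins enter the ER, fell with IFN-γ (-0.66 ± 0.16 (SE), adjusted p = 0.00308), from 117 ± 16.5 to 73.6 ± 14.8 CPM (mean ± SD, n = 3), with all IFN-γ libraries below the unstimulated ones. Grina, at chr15:76246764-76249904 on the plus strand, encodes a membrane protein of the TMBIM family, which is linked to calcium balance and cell survival under ER stress. Grina stood at 787, 949 and 906 CPM in unstimulated libraries a to c, at 1148, 1049 and 1239 CPM with E. coli, at 1710, 1639.8 and 1794 CPM with IFN-γ and at 2108, 1719 and 1657 CPM with both. For Grina, the IL-4 layout gave 1021, 1368 and 1002 CPM without a stimulus and 2003, 2031 and 2008 CPM with IL-4. Every stimulus gave libraries above all of its controls, with IFN-γ and both stimuli overlapping each other, and the IL-4 libraries lay closely together. Grina rose with E. coli (0.38 ± 0.12 (SE), adjusted p = 0.0238), IFN-γ (0.96 ± 0.12 (SE), adjusted p = 6.95e-06), both (1.05 ± 0.12 (SE), adjusted p = 1.03e-06) and IL-4 (0.83 ± 0.13 (SE), adjusted p = 0.00352). The E. coli call was lost without unstimulated a or E. coli 1 or 3 (log2 0.31 to 0.38). With counts corrected for the ceiling the E. coli value was 0.70, and those with IFN-γ and with both were 1.39 and 1.42.

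Adding E. coli to IFN-γ raised 6 members, 20% of those tested against 6.25% of all genes. These were Ppp1r15a (0.76 ± 0.11 (SE), adjusted p = 9.87e-05), Hspa5 (0.64 ± 0.11 (SE), adjusted p = 0.000462), Creld2 (0.61 ± 0.15 (SE)), P4hb (0.51 ± 0.11 (SE)), Manf (0.48 ± 0.15 (SE)) and Herpud1 (0.44 ± 0.13 (SE)). The calls of Ppp1r15a, Hspa5 and P4hb held whichever library was left out. Without IFN-γ 2 the call of Creld2 was lost (log2 0.56). The call of Herpud1 was lost without any 1 of the IFN-γ libraries or IFN-γ with E. coli 1 or 3 (log2 0.39 to 0.47), by DESeq2, without a filter and in a fit of the 6 libraries compared. That of Manf was lost without any 1 of 9 libraries, namely unstimulated a, b or c, E. coli 1 or 2, IFN-γ 1 or 2 and IFN-γ with E. coli 2 or 3 (log2 0.28 to 0.49), by DESeq2 and in a fit of the 6 libraries compared. Without IFN-γ 2, 3 members rose in place of 6, and without IFN-γ 1 or IFN-γ with E. coli 3, 1 was called lower. edgeR called none lower with all libraries, against 5.98% of all genes, 1, Eif2ak3, was lower at an unadjusted p under 0.05, and DESeq2 called 0.

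Adding IFN-γ to E. coli raised 10 members, 33.3% against 17.5% of all genes, and lowered 5, 16.7% against 15.3%. The lowered share is close to the background. Ppp1r15a (1.69 ± 0.11 (SE), adjusted p = 1.15e-09), Ero1lb (1.52 ± 0.18 (SE), adjusted p = 2.09e-06) and Creld2 (1.22 ± 0.15 (SE), adjusted p = 4.20e-06) rose by more than a factor of 2, and Xbp1 fell by more than that factor (-1.10 ± 0.13 (SE), adjusted p = 1.60e-06). Grina, Atf6, P4hb, Dnajb9, Syvn1, Edem1 and Hspa5 also rose, with log2 fold changes from 0.28 to 0.67. Selenos, Dnajb11, Dnajc3 and Sec61b also fell, with values from -0.48 to -0.42.

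Several of these calls depended on which libraries were kept. Without E. coli 1 or 3 or IFN-γ with E. coli 1, 3 members fell in place of 5. Hspa5 was called in 2 of the 12 fits that left out a library, those without unstimulated b or E. coli 3, and its log2 fold change was 0.22 to 0.32 in the others. Its call was also lost without a filter, with at least 10 counts in every library, in a fit of the 6 libraries compared and with the ceiling corrected. The rise of Syvn1 was lost without E. coli 1 or 3 or IFN-γ with E. coli 1 or 3 (log2 0.33 to 0.45), by DESeq2, without a filter, in a fit of the 6 libraries compared and in a fit of the 9 stimulated libraries with the replicate number as a block. The call of Edem1 was lost without E. coli 3 or IFN-γ with E. coli 3 (log2 0.24 to 0.32). The fall of Dnajb11 was lost without E. coli 1 or 3 or IFN-γ with E. coli 1 or 2 (log2 -0.49 to -0.36), by DESeq2 and in a fit of the 6 libraries compared. Sec61b lost its call without unstimulated a, any 1 of the E. coli libraries, IFN-γ 3 or IFN-γ with E. coli 1 (log2 -0.47 to -0.28), and by DESeq2 or with its size factors.

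The interaction tests whether the joint effect departs from the sum of the log2 effects of IFN-γ and E. coli. Ppp1r15a rose beyond that sum by 1.06 ± 0.16 (SE), adjusted p = 0.000627, 3.33% of the members tested against 2.58% of all genes, and P4hb fell short of it (-0.63 ± 0.16 (SE), adjusted p = 0.0241), again 3.33% against 2.04%. Both shares are near the background. The remaining 28 members tested were not called, with log2 values from -0.63 to 0.93. Without IFN-γ with E. coli 1, 2 members were called above the sum, and 2 and 3 fell short of it without E. coli 3 and IFN-γ with E. coli 3. The P4hb call was lost without unstimulated a, E. coli 1, IFN-γ 2 or 3 or IFN-γ with E. coli 2 (log2 -0.64 to -0.59). With the ceiling corrected, Grina also fell short of the sum (-0.66 ± 0.17 (SE), beside -0.29 on the counts as deposited).

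The response to IL-4 was tested directly against the response to IFN-γ with E. coli, each taken from its own unstimulated libraries. The value is the log2 fold change with IL-4 minus that with both stimuli, and its sign does not say which response was larger in size. Of 30 members, 14 were called with a negative value, 46.7% against 20.7% of the 10671 genes tested, and 2 with a positive value, 6.67% against 18.5%. The largest of these differences were those of Ero1lb (-1.92 ± 0.25 (SE), adjusted p = 3.63e-06), Creld2 (-1.87 ± 0.22 (SE), adjusted p = 8.78e-07), Ppp1r15a (-1.75 ± 0.20 (SE), adjusted p = 6.04e-07) and Edem1 (-1.69 ± 0.19 (SE), adjusted p = 3.91e-07). Xbp1 and Eif2ak3, which fell with both stimuli and were not called with IL-4, were the members called with a positive value, at 0.52 ± 0.17 (SE) and 0.62 ± 0.24 (SE). Xbp1 lost its call without unstimulated b, IFN-γ with E. coli 3 or IL-4 3 (log2 0.40 to 0.47), and Eif2ak3 was called in 4 of the 18 fits that left out a library, without IFN-γ 1, IFN-γ with E. coli 3, unstimulated f or IL-4 3 (log2 0.48 to 0.65 in the others). DESeq2 and a fit without a filter did not call Eif2ak3 either. Both were called without IFN-γ 1 or unstimulated f, neither without unstimulated b, and 1 member without any 1 of the other libraries. Syvn1 (-0.75 ± 0.25 (SE)) lost its call without unstimulated a or e, IFN-γ with E. coli 3 or IL-4 2 (log2 -0.71 to -0.61), without a filter and with at least 10 counts in every library. With the ceiling corrected, Grina was also called, at -0.58 ± 0.18 (SE), adjusted p = 0.0156, beside -0.28 on the counts as deposited. Stimulus and file layout cannot be told apart in this comparison, beyond what the control libraries of each layout remove.

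The pathway holds 95 other genes in 5 lists, of which 91 were tested in the first layout and 89 in the IL-4 comparison. With E. coli 29 rose and 8 fell, with IFN-γ 26 and 8, with both 34 and 13, and with IL-4 3 and 2. The shares higher and lower were 31.9% and 8.79% with E. coli, 28.6% and 8.79% with IFN-γ, 37.4% and 14.3% with both and 3.37% and 2.25% with IL-4. Of all genes tested, 13.5% and 16.7% were called higher and lower with E. coli, 15.6% and 16% with IFN-γ, 23.9% and 25.2% with both and 5.97% and 4.35% with IL-4, and the counts of each list below stand beside these shares. With IL-4 both shares of the 95 genes are below those of all genes, and with the other stimuli the share lower is. Their median log2 fold change was 0.23, 0.062, 0.25 and -0.12 in the same order. For each list the called genes of largest rise and fall are given, and other genes named were chosen after their values were seen.

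Among other folding and disulphide enzymes, of which 22 were tested in the first layout, 2 rose and 2 fell with E. coli, 3 rose and 3 fell with IFN-γ, and 4 rose and 6 fell with both. Ero1l, the other oxidase of the ER and the closest relative of Ero1lb, had the largest rise with every stimulus. The level of Ero1l was 161, 217 and 245 CPM unstimulated, 712, 672 and 719 CPM with E. coli, 1534, 1715 and 2173 CPM with IFN-γ and 2568, 2097 and 2422 CPM with both, and in the IL-4 layout 214, 233 and 232 CPM unstimulated and 342, 375 and 389 CPM with IL-4. Each stimulus lay above its controls without overlap, and the highest count, 3827, was 93.4% of the ceiling. IFN-γ 3 lay above replicate 2 of both stimuli on the counts as deposited, but with the ceiling corrected the groups did not overlap, at 1946, 2729 and 3451 CPM with IFN-γ and 4533, 4684 and 4738 CPM with both. The log2 fold change was 1.76 ± 0.16 (SE), adjusted p = 1.16e-07 with E. coli, 3.12 ± 0.16 (SE), adjusted p = 5.49e-11 with IFN-γ and 3.51 ± 0.17 (SE), adjusted p = 5.67e-12 with both. Corrected for the ceiling, these were 2.04, 4.01 and 4.79. With IL-4 Ero1l was the single riser (0.70 ± 0.11 (SE), adjusted p = 0.00346). Erp29 fell with IFN-γ, and Hspa13 and Sdf2 rose with both, whichever library was left out. The calls of Hspa13 and Cnpy2 with E. coli, of Erp44, Sdf2 and Mesd with IFN-γ and of Pdia5 with both were lost in some of those fits. edgeR called none of the list lower with IL-4, with 0 at an unadjusted p under 0.05 and 0 by DESeq2.

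The largest fall in that list with E. coli was that of Sil1, an exchange factor for BiP (-1.44 ± 0.52 (SE), adjusted p = 0.0452). Sil1 was also called lower with both stimuli (adjusted p = 0.0279), where no rank is read from its fitted value. With both stimuli Sil1 stood at 2.92, 1.10 and 1.98 CPM, where 3 counts equal 2.19, 1.64 and 1.98 CPM, so replicate 2 is under the floor and replicate 3 at it, and no fold is given. Its E. coli call was lost without any 1 of unstimulated a to c, E. coli 1 or 2 or IFN-γ with E. coli 1 or 2, with log2 values of -1.89 to -1.13 over the fits, and its joint call without any 1 of unstimulated a to c or IFN-γ with E. coli 2 or 3 (adjusted p up to 0.131). With IFN-γ alone the largest fall was that of Txndc5, a disulphide isomerase (-0.93 ± 0.27 (SE), adjusted p = 0.0128), a call lost without IFN-γ 3, with log2 values of -1.05 to -0.75 over the fits.

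The list of other degradation genes had 22 members tested. E. coli raised 7 and lowered 1, IFN-γ raised 5 and lowered 1, both raised 9 and lowered 2, and IL-4 lowered 1. Nploc4, a cofactor of the extraction ATPase, rose most with E. coli (0.71 ± 0.22 (SE), adjusted p = 0.02) and IFN-γ (0.80 ± 0.23 (SE), adjusted p = 0.0123), and Ube2j1, an ER-bound ubiquitin-conjugating enzyme, with both (1.15 ± 0.13 (SE), adjusted p = 4.54e-07). With IFN-γ Ube2j1 and Marchf6 rose whichever library was left out, and Rnf139 and Ubxn4 in some of those fits only. The E. coli call of Nploc4 was lost without unstimulated a or c or E. coli 2, with log2 values of 0.67 to 0.78 over the fits. Os9, a lectin that recognises misfolded glycoproteins, fell with E. coli (-0.39 ± 0.10 (SE), adjusted p = 0.00648), IFN-γ (-0.52 ± 0.10 (SE), adjusted p = 0.000919) and both (-0.74 ± 0.11 (SE)), and Ngly1, which removes sugar chains in the cytosol, fell most with both (-0.87 ± 0.16 (SE), adjusted p = 0.000226). Aup1 was the gene that fell with IL-4 (-0.61 ± 0.14 (SE), adjusted p = 0.0188) and lost that call without any 1 of the IL-4 libraries, with log2 values of -0.71 to -0.48 over the fits. edgeR called no gene of the list higher with IL-4, 0 at an unadjusted p under 0.05, and DESeq2 called 0.

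Genes for translocation, signal peptide cleavage and N-glycosylation, the steps by which proteins enter the ER, had 23 tested. E. coli raised 14 and lowered 1, 60.9% and 4.35% against 13.5% and 16.7% of all genes. IFN-γ raised 7 and lowered 3, 30.4% and 13% against 15.6% and 16%, and both raised 8 and lowered 3, 34.8% and 13% against 23.9% and 25.2%. The largest rises were those of Spcs3, a signal peptidase subunit, with E. coli (0.95 ± 0.13 (SE), adjusted p = 1.46e-05), Ssr3, a translocon-associated protein, with IFN-γ (0.64 ± 0.11 (SE), adjusted p = 0.000271) and Sec61g, a channel subunit, with both (1.05 ± 0.17 (SE), adjusted p = 3.65e-05). Sec11c, a catalytic subunit of signal peptidase, had the largest fall in each of these comparisons, -0.33 ± 0.12 (SE), adjusted p = 0.039 with E. coli, -0.69 ± 0.12 (SE), adjusted p = 0.000205 with IFN-γ and -1.06 ± 0.12 (SE), adjusted p = 9.32e-07 with both. Rpn1 and Ddost, subunits of the glycosylating enzyme, fell with IFN-γ, and Ddost and Tram1 with both, calls lost in some fits that left out a library. The E. coli call of Sec11c was kept in 3 of 12 fits that left out a library, those without unstimulated c or IFN-γ with E. coli 2 or 3, with log2 values of -0.42 to -0.23 over the fits. With IL-4 edgeR called none of 22 in either direction, with 0 higher and 3 lower at an unadjusted p under 0.05, and DESeq2 called 1 lower and 0 higher.

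Other regulators of the response had 20 genes tested. E. coli raised 5 and lowered 4, IFN-γ raised 9 and lowered 1, both raised 10 and lowered 2, and IL-4 raised 2. With E. coli the largest fitted rise among the called genes was that of Creb3l2, a membrane-bound transcription factor (1.69 ± 0.36 (SE)). Creb3l2 had 4 to 22 counts per library in the first layout, so its value rests on few counts and no rank is read from it. The largest fall was that of Crebrf, a regulator of CREB3 proteins (-0.997 ± 0.16 (SE), adjusted p = 0.000105). Nfe2l1, Sesn2 and Eif2s1 rose with E. coli whichever library was left out, and the calls of Atf3, which rose, and of Eif2ak1, Eif2ak4 and Rtcb, which fell, were lost in some of those fits. With IFN-γ and with both stimuli Stc2, a secreted glycoprotein induced under ER stress, is given because its fitted value was the largest among the called genes. That value is a fold over controls at or under the floor, and no rank is read from it. Stc2 stood at 0, 0 and 0.413 CPM unstimulated, 0, 0 and 0.494 CPM with E. coli, 2.80, 9.74 and 9.16 CPM with IFN-γ and 31.4, 16.4 and 14.5 CPM with both, each group of the latter pair above all unstimulated libraries. The unstimulated and E. coli libraries are at or under the floor, so no fold is given. Stc2 passed the filter through the groups where it is high, so no p is given for it. Its calls are part of the counts above. Atf3 rose with IFN-γ (2.52 ± 0.23 (SE)) and both (3.38 ± 0.23 (SE)), Trib3 with IFN-γ (1.92 ± 0.33 (SE)) and both (3.12 ± 0.30 (SE)), Atf4 with IFN-γ (0.52 ± 0.10 (SE)) and both (0.89 ± 0.10 (SE)), and Ddit3, which shares its position with other annotated genes, with both (1.00 ± 0.17 (SE)).

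Eif2ak4, a kinase of eIF2α that senses lack of amino acids, had the largest fall among these regulators with IFN-γ (-0.91 ± 0.29 (SE), adjusted p = 0.0229) and with both (-0.89 ± 0.30 (SE), adjusted p = 0.018). The IFN-γ call was lost without unstimulated a or b or IFN-γ 1 or 2, with log2 values of -1.04 to -0.72 over the fits, and the joint call without unstimulated a or IFN-γ with E. coli 1 or 3 (-1.39 to -0.66). With IL-4 Eif2ak2, the eIF2α kinase that senses double-stranded RNA, rose most (1.08 ± 0.24 (SE), adjusted p = 0.0192) and lost that call without any 1 of the IL-4 libraries, with log2 values of 0.79 to 1.29 over the fits. Rtcb, the ligase that joins the Xbp1 exons after IRE1 has cut them, fell with both stimuli, a call lost in some fits that left out a library, and rose with IL-4 (0.95 ± 0.15 (SE), adjusted p = 0.00315). No regulator was called lower by edgeR with IL-4, with 4 at an unadjusted p under 0.05 and 1 by DESeq2.

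Of the other TMBIM genes, relatives of Grina, 4 of 5 were tested. Tmbim4 rose most with E. coli (0.54 ± 0.10 (SE), adjusted p = 0.000497), IFN-γ (1.07 ± 0.10 (SE), adjusted p = 2.02e-07) and both (1.74 ± 0.10 (SE), adjusted p = 1.00e-10). E. coli raised 1 of the 4, IFN-γ 2, with Ghitm, and both 3, with Ghitm and Tmbim6. The call of Tmbim6 was lost in some fits that left out a library. edgeR called none lower with these stimuli, with 0 at an unadjusted p under 0.05 and 0 by DESeq2 in each comparison. With IL-4 Tmbim1 fell (-0.86 ± 0.20 (SE), adjusted p = 0.021) and lost that call without unstimulated f or any 1 of the IL-4 libraries, with log2 values of -1.03 to -0.74 over the fits, and edgeR called none higher, with 0 at an unadjusted p under 0.05 and 0 by DESeq2.

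The promoters of the members were read for the letters that transcription factors of the response are known to bind, since many members moved together with a stimulus. RefSeq promoters on GRCm38.p6 were 300 bases each, from 250 before to 50 after the gene's start in RefSeq. That start can differ from the Ensembl position given above, as for Hspa5, whose element lies inside the gene by the Ensembl position. Promoters were available for 26 of the 31 members, and not for Hyou1, Manf, Atf6, Derl1 and Grina. The ER stress element, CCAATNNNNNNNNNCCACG read on both strands, was found in 10 of the 26, or 38.5%, and in 39 of all 32851 promoters, or 0.119%. Its second form, ATTGGNCCACG, was found in Dnajb11 and Herpud1, 7.69% of the members, and in 12 of all promoters, or 0.0365%. TGACGTGG and TGATGNAAT, the elements linked to XBP1 and to ATF4, were in 0 of the 26 and in 0.676% and 0.965% of all promoters. The ER stress element was in Hspa5, Hsp90b1, Creld2, Dnajc3, Calr, Canx, Pdia6, Ero1lb, Syvn1 and Derl3. A match describes the letters in this window. No binding was measured, and no matches overlapped.

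The matches are shown along the strand that holds them, with the fixed letters in capitals and the gap in lower case, to let the elements of the members be compared. The gap differs in every gene.
Hspa5, chr2:34772025-34772043, gene strand: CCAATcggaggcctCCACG
Hsp90b1, nearer the start, chr10:86705533-86705551, opposite strand: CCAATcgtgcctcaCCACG
Hsp90b1, farther from the start, chr10:86705638-86705656, gene strand: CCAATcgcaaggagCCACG
Creld2, chr15:88819520-88819538, opposite strand: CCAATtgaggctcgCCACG
Dnajc3, chr14:118937827-118937845, gene strand: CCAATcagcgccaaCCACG
Calr, chr8:84847075-84847093, opposite strand: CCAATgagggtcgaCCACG
Canx, chr11:50325800-50325818, gene strand: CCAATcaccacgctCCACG
Pdia6, chr12:17266491-17266509, gene strand: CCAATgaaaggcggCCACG
Ero1lb, chr13:12565682-12565700, opposite strand: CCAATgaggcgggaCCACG
Syvn1, chr19:6046532-6046550, gene strand: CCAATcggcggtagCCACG
Derl3, chr10:75893242-75893260, opposite strand: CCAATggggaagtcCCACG
Dnajb11, chr16:22857852-22857862, gene strand: ATTGGcCCACG
Herpud1, chr8:94386377-94386387, gene strand: ATTGGgCCACG

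Members with either element did not all move alike. With E. coli 5 of the 11 tested rose, beside 5 of the 14 with a promoter and no match and 13.5% of all genes. With both stimuli 7 rose and 1 fell among those with a match, and 5 rose and 2 fell among those without, beside 23.9% and 25.2% of all genes. With IFN-γ 2 rose and 1 fell among those with a match, and 3 rose and 2 fell among those without, beside 15.6% and 16% of all genes. Derl3 has the element and stayed at the floor, and P4hb, whose rise was among the largest, has no full match to any of these elements in its window. The whole windows of 4 members follow, with the matches in capitals along the gene's strand. Matches of the other strand therefore read as the reverse complement of the element. The 4 are Hspa5, which rose with E. coli, Creld2 and Ero1lb, which rose with IFN-γ, and Herpud1, which fell with it.
Hspa5, chr2:34771840-34772139 on the plus strand: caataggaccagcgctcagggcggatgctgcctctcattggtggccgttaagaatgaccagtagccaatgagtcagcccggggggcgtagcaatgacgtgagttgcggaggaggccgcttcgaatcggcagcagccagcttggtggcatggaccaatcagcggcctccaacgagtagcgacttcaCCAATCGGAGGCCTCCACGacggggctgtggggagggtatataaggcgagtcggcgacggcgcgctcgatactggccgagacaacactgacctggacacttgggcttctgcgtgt
Creld2, chr15:88819396-88819695 on the plus strand: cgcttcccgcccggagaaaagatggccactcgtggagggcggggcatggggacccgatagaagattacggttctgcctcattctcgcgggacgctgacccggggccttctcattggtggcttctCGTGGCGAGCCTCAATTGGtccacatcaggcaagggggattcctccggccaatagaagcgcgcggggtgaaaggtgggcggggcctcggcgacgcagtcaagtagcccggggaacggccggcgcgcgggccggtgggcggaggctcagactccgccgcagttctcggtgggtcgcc
Ero1lb, chr13:12565633-12565932 on the plus strand: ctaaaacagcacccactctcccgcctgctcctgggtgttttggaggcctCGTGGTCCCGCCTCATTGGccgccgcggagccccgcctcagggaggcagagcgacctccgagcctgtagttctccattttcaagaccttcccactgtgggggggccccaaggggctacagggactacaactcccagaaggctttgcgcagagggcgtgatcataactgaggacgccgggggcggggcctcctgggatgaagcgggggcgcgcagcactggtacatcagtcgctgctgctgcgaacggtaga
Herpud1, chr8:94386179-94386478 on the plus strand: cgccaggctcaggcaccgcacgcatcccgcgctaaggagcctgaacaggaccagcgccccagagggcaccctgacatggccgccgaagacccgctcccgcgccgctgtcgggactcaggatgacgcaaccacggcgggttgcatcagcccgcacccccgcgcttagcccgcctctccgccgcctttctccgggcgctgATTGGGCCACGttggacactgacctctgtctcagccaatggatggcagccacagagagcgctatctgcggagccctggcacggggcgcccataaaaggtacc

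The paper reports a check of purity by flow cytometry and describes the remaining cells as mostly lymphocytes. Here the label of the cells was checked against RNA markers. Ccr3, Siglecf and Alox15 were high in all 18 libraries, Ccr3 at 1196 to 2673 CPM, Siglecf at 322 to 1167 CPM and Alox15 at 959 to 2455 CPM. Epx, the eosinophil peroxidase, and the RNases Ear1 and Ear2 were low, Epx at 0 to 3.61 CPM. The 9 eosinophil markers, with Alox15 and Ccr3 the most abundant in every library, summed to 3842, 5137 and 3989 CPM in unstimulated a to c, 3519, 3116 and 3533 with E. coli, 4070.4, 3604 and 4445 with IFN-γ, 3275, 2892 and 3124 with both, 5171, 6000.1 and 5291 in unstimulated d to f and 5029.6, 5231 and 5104 with IL-4. The sums with E. coli and with both stimuli all lay below the unstimulated ones, and Siglecf fell with each of E. coli, IFN-γ and both. Of the 6 tested in that layout, 1 rose and 2 fell with E. coli, 4 fell with IFN-γ (3 to 4 in fits that left out a library), and 1 rose and 4 fell with both. The riser with both, Ear6, lost its call without unstimulated a or c or IFN-γ with E. coli 2. With IL-4 4 of 9 rose, Siglecf, Prg2, Ear6 and Il5ra, and Ccr3 fell. Ear6 went from 138 ± 8.74 to 348 ± 18.8 CPM and Prg2 from 35.1 ± 11.1 to 63 ± 4.09 CPM (mean ± SD, n = 3). Without IL-4 1, 2 or 3 or unstimulated f, 1 of the 9 rose, and without unstimulated d 2 did, and without IL-4 1 or 3 none fell by edgeR. In the first layout Alox15 reached 91.1% of the ceiling and Ccr3 87.3%, so the sums there are compressed.

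Markers of other cells were also present and moved with the stimuli. The 8 markers of B and plasma cells, cells with a large ER, summed to 226, 203 and 123 CPM in unstimulated a to c, 42.8, 46.5 and 80.5 with E. coli, 105, 65.1 and 59.5 with IFN-γ, 128, 142 and 137 with both, 26.9, 25.2 and 47 in unstimulated d to f and 66.4, 61.5 and 73.4 with IL-4, with Ighm the most abundant gene. The sums with E. coli and with IFN-γ lay below all unstimulated ones, where 5 and 4 of the 6 tested fell, those with both stimuli lay within the unstimulated range, and 3 of the 4 tested rose with IL-4, or 0 to 4 in fits that left out a library, with 0 without IL-4 1 or 3, 1 without IL-4 2 and 2 without unstimulated d. Against IFN-γ alone 4 of 6 were higher with both stimuli, 66.7% against 6.25% of all genes, against E. coli alone 6 of 6, 100% against 17.5%, and in the interaction 6 of 6 were called above the sum of the single effects, 100% against 2.58%, with a median log2 value of 2.60. Leaving out a library gave 6 to 7 higher against E. coli and 5 to 7 in the interaction. Against IFN-γ it gave 0 without E. coli 1, IFN-γ 2 or 3 or IFN-γ with E. coli 2, 1 without unstimulated a, IFN-γ 1 or IFN-γ with E. coli 3, 2 without E. coli 2 or IFN-γ with E. coli 1, and 3 without unstimulated b or c or E. coli 3. Of the members, 6 were higher with both stimuli than with IFN-γ alone, 20% against 6.25% of all genes. Against E. coli alone 10 were, 33.3% against 17.5%, and in the interaction 1 was called above the sum, 3.33% against 2.58%. With E. coli, where 5 of the 6 B and plasma cell markers tested fell, 13 members rose, 43.3% against 13.5%. The part of B and plasma cells in the members' values was not tested. The 9 macrophage markers summed to 1709, 1816 and 1825 CPM in unstimulated a to c, 1682, 1507 and 2029.8 with E. coli, 2333, 2282 and 2490.3 with IFN-γ, 2098, 1990 and 2467 with both, 2656, 3152 and 3278 in unstimulated d to f and 2227, 2208 and 2488 with IL-4, led in the first layout by Adgre1, which mouse eosinophils also carry, and in each library of the IL-4 layout by C1qb or C1qc. Of these, 2 fell with E. coli, 4 rose and 2 fell with IFN-γ, 2 rose and 1 fell with both, and 3 fell with IL-4. Leaving out a library moved these falls to 2 to 5 with E. coli (5 without E. coli 3, 4 without unstimulated b), the rises with IFN-γ to 2 to 4 (2 without unstimulated a or c), the falls with IFN-γ to 0 to 2 (0 without unstimulated a or IFN-γ 1, 1 without unstimulated c, E. coli 1, IFN-γ 2 or 3 or IFN-γ with E. coli 1 or 2) and the falls with IL-4 to 1 to 3 (1 without IL-4 1 or 2). In the first layout Adgre1 reached 66.9% of the ceiling, so the macrophage sums there are compressed too. The 6 mast cell markers summed to 9.69, 8.24 and 7.43 CPM in unstimulated a to c, 10.2, 6.69 and 34.6 with E. coli, 30.2, 14.4 and 13.1 with IFN-γ, 36.5, 72.3 and 66.6 with both, 8.61, 6.63 and 7.36 in unstimulated d to f and 17.3, 7.98 and 20.7 with IL-4, and in the first layout were highest with both stimuli. Tpsb2 and Cma1 had the highest group means in that layout, with Cma1 above Tpsb2 with both stimuli. Of the 2 mast cell markers tested, edgeR called 0 with E. coli, 1 higher with IFN-γ, 2 higher with both stimuli and 0 with IL-4. The call with IFN-γ was lost without IFN-γ 1 or unstimulated a, b or c. Cma1, 1 of the 2, stood at 1.90 to 2.98 CPM in unstimulated a to c and at 13.1 to 33 CPM with both stimuli. It passed the filter through the group with both, so its calls there are part of the counts and are not read as support. With both stimuli 1 was called higher against IFN-γ alone and 2 against E. coli alone, and the interaction had 0.

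The 7 neutrophil markers summed to 588, 711 and 576 CPM in unstimulated a to c, 448, 424 and 486 with E. coli, 686, 634 and 743 with IFN-γ, 352, 413 and 435 with both, 1997, 1947 and 1681 in unstimulated d to f and 806, 833 and 774 with IL-4, with Retnlg the most abundant, and lay below the unstimulated sums with E. coli, both stimuli and IL-4. Retnlg, which makes up most of these sums, fell in these 3 comparisons, while some of the others rose. Of the 4 tested in the first layout, 2 rose and 1 fell with E. coli, 2 and 1 with IFN-γ and 2 and 2 with both, where 1 fell without unstimulated a or IFN-γ with E. coli 3, and of 5 tested with IL-4 1 rose and 1 fell. With E. coli S100a8 went from 8.58 ± 1.96 to 72.1 ± 43.7 CPM and Cxcr2 from 26.2 ± 3.72 to 88.5 ± 7.83 CPM, and with IL-4 Cxcr2 from 3.76 ± 1.22 to 32.1 ± 9.37 CPM (mean ± SD, n = 3). Every marker of these 5 lists had more than 3 counts in at least 1 library, while Elane, Mpo, Mcpt4 and Fcer1a were at or near 0 in most. Of the 6 T cell markers Cd3e, Cd3g, Cd4 and Cd8a had at most 3 counts in every library, and of the 5 mesothelial markers so did Msln, Lrrn4, Krt19 and Krt8. The summed level was 1.81 to 9.32 CPM for T cells, with Cd3d the most abundant, and 0 to 1.70 CPM for mesothelial cells, whose highest value was 1.32 CPM, for Upk3b in unstimulated f. The part of other cells in the members' changes was not tested, and fewer cells of a type cannot be told apart from less RNA per cell in bulk libraries.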

How the data were processed

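Count files were used as deposited. The paper describes CEL-Seq2 libraries, and the deposited text names CEL-Seq and RNA-seq without assigning them to libraries. The authors made the counts by alignment to GRCm38 and HTSeq 0.6.1 in union mode after TopHat2 2.1.0, without normalization, and also name fastp 0.20.1 and STAR 2.7.2a without saying for which libraries. Whether reads sharing a molecular identifier were collapsed is not stated. In the first layout 21.1 to 39.4% of reads stood in HTSeq's summary categories, which were removed, and the IL-4 layout has none.

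Genes passed edgeR's filterByExpr, counts were scaled with TMM, and groups were compared with edgeR's quasi-likelihood F test with Benjamini-Hochberg adjustment over all genes tested, in R 4.3.3 with edgeR 4.0.16, and with DESeq2 1.42.0 as an alternative. Standard errors were taken as the log2 fold change over the root of F and are approximate. The first layout was fitted as a whole, the IL-4 set by itself, and all 18 libraries for the difference between the IL-4 and joint responses. Leaving out a library means a new fit with its filter and scaling.

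Values in every library are given for members called with an absolute log2 fold change of at least 1, for the sensors and signalling members and for Hspa5. For each other list, the called genes of largest rise and fall are given. The members and lists were chosen with earlier results of these data known.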

Additional observations from a re-analysis of the deposited data

Results flagged for a closer look

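Members were marked here where the responses to the stimuli differed by a test of their own. By the interaction of IFN-γ and E. coli, Ppp1r15a was marked at a log2 value of 1.06 ± 0.16 (SE), adjusted p = 0.000627, and P4hb at -0.63 ± 0.16 (SE), adjusted p = 0.0241. Ppp1r15a kept its call whichever library was left out, and the P4hb value was -0.64 to -0.59 in the fits that lost the call.

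By the IL-4 response minus the joint response, the log2 value was negative for Ero1lb (-1.92), Creld2 (-1.87), Ppp1r15a (-1.75), Edem1 (-1.69), P4hb (-1.63), Atf6 (-1.47) and Manf (-1.23). Smaller negative values were those of Derl1 (-0.97), Derl2 (-0.88), Pdia6 (-0.86), Calr (-0.78), Canx (-0.77), Syvn1 (-0.75) and Hspa5 (-0.67). It was positive for Eif2ak3 (0.62) and Xbp1 (0.52). Eif2ak3 kept its call in 4 of the 18 fits that left out a library (0.48 to 0.65 in the others) and lost it by DESeq2 and without a filter. Xbp1 lost its call in 3 of those fits (0.40 to 0.47) and Syvn1 in 4 (-0.71 to -0.61), and Syvn1 also without a filter and with at least 10 counts in every library. Beside the negative values, the joint response was itself called higher for every gene but Calr, and edgeR called no change with IL-4. DESeq2 called Calr and Derl1 lower with IL-4, where their log2 values, -0.43 and -0.57, were farther from 0 than those with both stimuli, 0.29 and 0.34. The 2 responses come from different file layouts, and layout and stimulus cannot be told apart beyond what each layout's own controls remove. No explanation was weighed.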

How the results depend on the processing

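The members had 83 called values over the 8 comparisons, which gave 1585 values under an alternative. Of these, 1441 kept their direction and their call, 144 kept their direction and lost the call, and 0 reversed. Of the counts of called members, 244 stayed within a factor of 1.5 and 56 did not.

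With a factor of 2 or more asked for, fewer members were called by construction. E. coli then had 1 higher, IFN-γ 3 higher and 0 lower, both stimuli 7 higher and 0 lower, and IL-4 0 higher. Both against IFN-γ had 0 higher, both against E. coli 3 higher and 1 lower, the interaction 0 lower, and the IL-4 minus joint response 0 higher and 7 lower.

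Leaving out a library moved the count of members higher with E. coli over 8 to 18, of those lower with both stimuli over 1 to 4 and of those lower with IL-4 over 0 to 2. For both against IFN-γ it was 3 to 6 higher and 0 to 1 lower, for both against E. coli 3 to 7 lower, for the interaction 1 to 2 higher and 0 to 3 lower, and for the IL-4 minus joint response 0 to 2 higher. The cause was not tested.

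DESeq2 gave 1 lower with both stimuli, 2 lower with IL-4, 3 lower for both against E. coli and 1 higher for the IL-4 minus joint response. No filter gave 2 lower with IL-4, 2 lower in the interaction and 1 higher in the IL-4 minus joint response. At least 10 counts in every library gave 2 lower with E. coli, and the ceiling correction 2 lower in the interaction. The cause was not tested.

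With the replicate number as a block, both against IFN-γ had 7 higher and 0 lower, and both against E. coli 9 higher and 6 lower. Residual correlations between libraries of equal number ran from -0.0348 to 0.361, and unequal numbers reached 0.285.

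The files limit the results in these ways. With 3 libraries a group, small differences can miss the threshold. Counts in the first layout are capped near the number of identifiers, which compresses Ero1l, Grina and, less so, Tmbim6 and Xbp1, and of the eosinophil markers Alox15 and Ccr3 most. Of the macrophage markers it compresses Adgre1 most, whose highest count is 66.9% of the ceiling. Derl3 and Stc2 lie at or under the floor in the unstimulated libraries. The paper describes CEL-Seq2 libraries and biological replicates. Which layout holds the RNA-seq libraries that the deposited text also names, and whether replicates came from separate mice, are not stated. Nor is it stated how long the unstimulated cells were kept in culture.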
